A study of Mus musculus with 12 samples.

Results

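Mesenteric lymph nodes were compared with spleens in untreated mice at 6 weeks of age. The comparison rests on the 3 node samples and 3 spleen samples labelled as controls, which are 6 of the 12 samples of the series, and covers each panel gene whose mean reached 20 scaled counts. All 12 mice were C57BL6 animals of a hemophilia A strain with exon 16 knocked out, so the groups share the loss of clotting factor VIII and no mouse with an intact copy was analysed here. The other 6 samples were 3 spleens and 3 nodes from mice of that strain given ampicillin by gavage at 3 weeks and taken at 6 weeks. They entered the model that estimates the spread of each gene and a repeat of the comparison. The labels give every sample a mouse of its own, so untreated nodes and spleens came from different animals. Sex, litter and cage are not given in the sources used here, and no group was given gavage without the drug.

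The spleen filters blood. Its red pulp holds macrophages that clear aged red cells, along with platelets, granulocytes and, in mice, blood cell precursors, and its white pulp holds T cell zones, B cell follicles and a marginal zone with B cells of its own. Mesenteric lymph nodes filter lymph from the gut. Naive lymphocytes enter them through specialised venules, dendritic cells arrive in the lymph from the intestine, and macrophages line the sinuses through which the lymph flows.

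RNA was counted with the NanoString mouse immunology panel, in which barcoded probes hybridise to transcripts and are counted without amplification. A scaled count is the deposited count divided by a factor made from the 14 housekeeping genes of the sample. Total counts ran from 586245 to 738489 in the spleens and from 454814 to 652630 in the nodes, and the housekeeping geometric means of the 6 samples spanned a 1.48-fold range. Among the housekeeping genes themselves the difference between organs ran from -0.37 (G6pdx) to 0.41 (Tubb5) on the log2 scale, so changes of that size cannot be told from the scaling. Log2 differences are nodes minus spleen, with the standard error (SE) of the model, and a gene was called at a Benjamini-Hochberg adjusted p under 0.05 in the quasi-likelihood test of edgeR. Where the mean of an organ lay under 20 scaled counts, the fold is given as a bound, the mean of the other organ over 20. Probes differ in efficiency, so levels are compared between samples and never between genes.

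Of 547 genes, 445 reached the minimum and 102 did not. The organs differed in 285 of the 445 (64.0%), with 132 higher in nodes (29.7%) and 153 lower in nodes (34.4%). The median log2 difference of all tested genes was -0.03. Called genes that differed at least 2-fold numbered 51 higher in nodes (11.5%) and 55 lower (12.4%), and 92 of the called genes differed by less than 1.5-fold. The 3 node values did not overlap the 3 spleen values in 335 genes (75.3%), which included all 285 called genes and 50 others. At 8-fold and beyond, 7 genes were higher in nodes and 9 lower. These counts at 2-fold and 8-fold rest on fitted folds, also for genes under 20 scaled counts in one organ. Some of those genes have bounds below these limits. Among tested genes, 20 had a node mean under 20 scaled counts and 10 a spleen mean under 20. The tested genes under 20 in one organ reached the minimum only through the organ where they were high, so their call says little by itself. The counts for each list of genes below are to be read against these shares of the whole panel, and a gene can stand in more than one list.

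**Figure D1:**
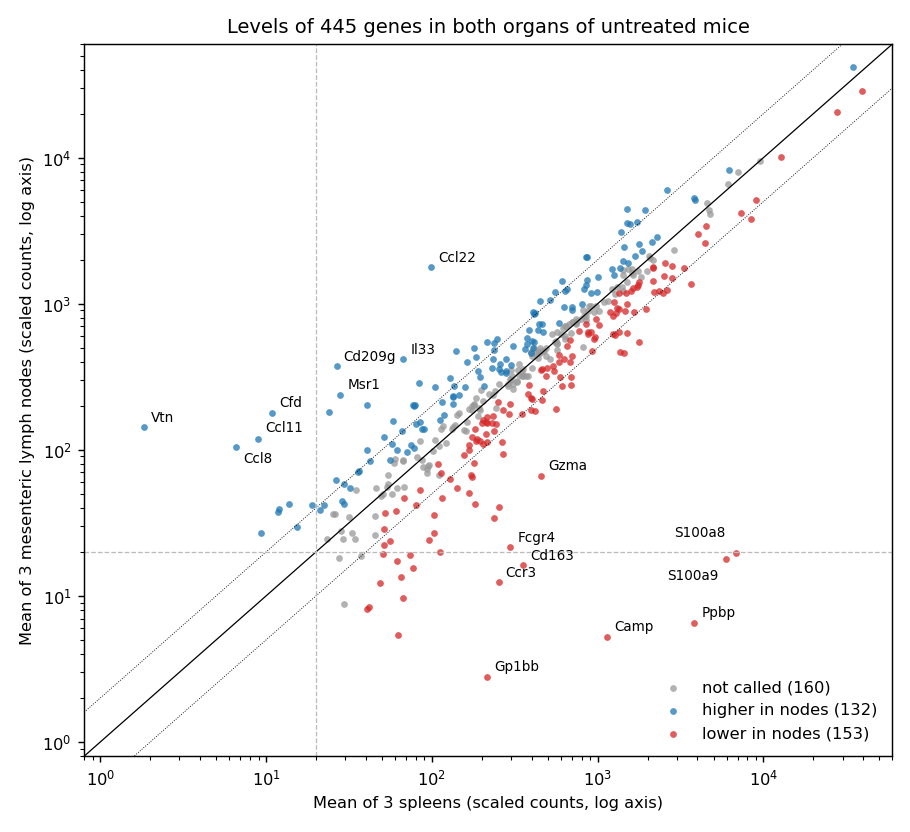
Mean scaled counts of the 445 tested genes in the 3 untreated spleens (x, log axis) and the 3 untreated mesenteric lymph node samples (y, log axis), coloured by call. The solid line marks equal levels, the dotted lines a 2-fold difference and the dashed lines 20 scaled counts. Ppbp, Camp and Gp1bb lie under 20 scaled counts in the nodes and far below the diagonal, while Ccl22 is far above the diagonal with both organs over 20.

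Platelet and neutrophil genes showed the largest differences of the panel. Ppbp encodes platelet basic protein, a chemokine stored in platelet granules. It stood at 3672, 4951 and 2842 scaled counts in spleens 1, 2 and 3 and at 12.9, 3.57 and 3.22 in nodes 1, 2 and 3, at least 191-fold lower in nodes (adjusted p = 1.6e-09). Gp1bb, a subunit of the platelet receptor for von Willebrand factor, stood at 214, 275 and 156 in the spleens and 3.97, 1.19 and 3.22 in the nodes, at least 10.8-fold lower (adjusted p = 2.9e-08). For both genes the lowest spleen was spleen 3 and every node value lay under 20. Itga2b, the alpha chain of the platelet fibrinogen receptor, was lower in nodes as well (log2 difference -1.56, SE 0.21, adjusted p = 2.8e-05). Of the 5 tested platelet and megakaryocyte genes 4 were lower in nodes and 1 higher. The exception, Pecam1 (0.31, adjusted p = 0.0057), is shared with endothelium. The methods' t-test was run on scaled counts without logs and estimates the spread of each gene in each group alone. It gave adjusted p = 0.051 for both Ppbp and Gp1bb and 0.076 for Itga2b. In bulk tissue fewer cells of a type and less RNA per cell cannot be told apart, here or in any comparison that follows.

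The neutrophil list had 10 tested members, 9 lower in nodes and 1 higher, with a median log2 difference of -2.26. S100a8 and S100a9 encode the calcium-binding proteins that form calprotectin, the main cytosolic protein of neutrophils. S100a8 stood at 7228, 8722 and 4523 scaled counts in the spleens and 27.8, 15.5 and 15.3 in the nodes, at least 341-fold lower (adjusted p = 9.5e-08). S100a9 stood at 6289, 7514 and 3943 in spleens and 23.8, 15.5 and 14.5 in nodes, at least 296-fold lower (adjusted p = 3.5e-08). The pair kept the same order over the 3 spleens, highest in spleen 2 and lowest in spleen 3, and so did Camp, the antimicrobial cathelicidin of neutrophil granules. Camp stood at 1249, 1426 and 724 in the spleens and at 4.96, 5.95 and 4.84 in the nodes, at least 56.6-fold lower (adjusted p = 1.8e-06). With the methods' t-test the adjusted p was 0.060 for S100a8, 0.058 for S100a9 and 0.063 for Camp. Summed over the 5 neutrophil markers, the samples held 9428 to 18053 scaled counts in spleens and 124 to 164 in nodes. Receptors in the list differed less. Csf3r, the receptor for granulocyte colony-stimulating factor, differed by -1.72 (adjusted p = 2.3e-04) and Cxcr2, a receptor for neutrophil-attracting chemokines, by -1.37 (adjusted p = 1.1e-04). Il1b, the inflammatory cytokine interleukin 1 beta, was 6.92-fold lower in nodes, at 217, 216 and 273 scaled counts in spleens and 39.7, 34.5 and 28.2 in nodes. The member higher in nodes was Il1r2, the decoy receptor that binds interleukin 1 without signalling (1.23, adjusted p = 3.3e-04). Nodes and spleens did not overlap in any of these genes, as in 75.3% of all tested genes. Ccr3, an eosinophil chemokine receptor, was at least 12.6-fold lower in nodes, at 261, 281 and 215 scaled counts in spleens and 18.9, 7.15 and 11.3 in nodes.

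The start regions of the 4 genes with the largest differences are shown because these genes were high in the same 3 samples, with no node sample above 27.8 scaled counts in any of them. Each line gives the 250 bases before the transcription start, 5′ to 3′ on the strand of the gene, from RefSeq on GRCm38.p6, with letters in capitals where one of 5 short motifs was found on either strand. The windows are chr5:90768268-90768517 (plus strand) for Ppbp, chr3:90668821-90669070 (plus) for S100a8, chr3:90695722-90695971 (minus) for S100a9 and chr9:109849457-109849706 (minus) for Camp.
Ppbp: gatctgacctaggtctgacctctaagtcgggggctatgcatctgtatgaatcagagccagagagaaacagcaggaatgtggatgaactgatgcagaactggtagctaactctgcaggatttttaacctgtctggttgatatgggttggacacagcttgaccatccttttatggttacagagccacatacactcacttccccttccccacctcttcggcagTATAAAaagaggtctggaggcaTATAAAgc
S100a8: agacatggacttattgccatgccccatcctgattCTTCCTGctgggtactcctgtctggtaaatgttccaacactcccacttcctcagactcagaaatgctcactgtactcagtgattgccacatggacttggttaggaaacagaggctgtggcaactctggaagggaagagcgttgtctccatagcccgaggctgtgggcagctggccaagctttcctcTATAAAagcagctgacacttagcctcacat
S100a9: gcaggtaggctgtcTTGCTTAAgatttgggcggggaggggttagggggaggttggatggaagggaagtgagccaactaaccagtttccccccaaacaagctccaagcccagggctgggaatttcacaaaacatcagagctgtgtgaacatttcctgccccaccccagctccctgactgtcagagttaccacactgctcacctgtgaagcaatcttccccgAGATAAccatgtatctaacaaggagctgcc
Camp: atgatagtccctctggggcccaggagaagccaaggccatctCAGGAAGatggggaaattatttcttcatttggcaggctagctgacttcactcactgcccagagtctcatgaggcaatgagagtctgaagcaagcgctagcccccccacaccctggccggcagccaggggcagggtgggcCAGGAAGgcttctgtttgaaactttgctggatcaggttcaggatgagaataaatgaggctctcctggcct
The motifs were AGATAA for GATA factors, TTGCNNAA for C/EBP, CAGGAAG for ETS factors, TGTGGTT for RUNX and TATAAA for the TATA box, and no matches overlapped. Ppbp and S100a8 each hold TATAAA beginning 30 bases before the start, and Ppbp a further one 8 bases before it. S100a8 also holds an ETS match on the reverse strand 216 bases before the start. S100a9 holds a C/EBP match 236 bases and AGATAA 30 bases before the start, and Camp 2 ETS matches. The letters TATAAA occurred in 13.0% of the 27025 mouse promoters of this length, TTGCNNAA in 9.55%, CAGGAAG in 10.5%, AGATAA in 10.3% and TGTGGTT in 4.46%. Among the 330 tested genes with a promoter, the shares in the same order were 14.5%, 9.70%, 17.0%, 7.27% and 6.67%. These matches describe the letters alone, and the counts carry no information on binding.

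Erythroid and progenitor genes gave a less settled picture, with 2 of 8 higher in nodes, 2 lower and 4 not called. The number lower was 5 without ampicillin spleen 1, and 1 without spleen 2 or without node 3, and the number higher was 1 without spleen 3 or without node 3. Tal1, which early blood cells need to form, stood at 147, 279 and 117 scaled counts in the spleens and 47.6, 47.6 and 31.4 in the nodes, a log2 difference of -2.12 (SE 0.72, adjusted p = 0.019). Spleen 2 was the highest, and the adjusted p was 0.078 without spleen 2 and 0.068 without node 3. Tfrc, the transferrin receptor, stood at 786, 1119.9 and 553 in spleens and 506, 509 and 503 in nodes and was not called (-0.70, SE 0.51, adjusted p = 0.25), nor were the mitochondrial transporter Abcb10 (-0.71, adjusted p = 0.30) and the red cell adhesion molecule Icam4 (-1.74, adjusted p = 0.14). The groups did not overlap in any of the 4 genes, as in 75.3% of all tested genes. Their SE takes in the ampicillin spleens, which differed among themselves, with Tfrc at 619, 5217 and 4006 scaled counts. Fitted on the 6 untreated samples alone, Tfrc, Abcb10 and Icam4 passed, with adjusted p = 0.013, 0.025 and 0.0047, and also when ampicillin spleen 1 was left out (adjusted p = 0.0051, 0.0095 and 0.0021). Kit, the stem cell factor receptor of progenitors and mast cells, was lower in nodes (-0.85, adjusted p = 0.0021), and Cd34, found on progenitors and endothelium, was higher (0.68, adjusted p = 0.0031).

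Natural killer and cytotoxic genes split by gene. Of 13 tested, 7 were lower in nodes, 1 was higher and 5 were not called, and 8 further members lay below the minimum. Gzma, the granule protease granzyme A, stood at 525, 459 and 374 scaled counts in spleens and 91.3, 60.7 and 46.8 in nodes, 6.87-fold lower in nodes (adjusted p = 5.5e-06). No node sample came near the lowest spleen, and the organs did not overlap in 75.3% of all tested genes. Cd244, a receptor of natural killer cells and some myeloid cells, was at least 3.34-fold lower, and the inhibitory receptors Klra8 and Klrc1 at least 3.83-fold and 3.67-fold lower. The activating receptor Klrk1 differed by -1.35 (SE 0.26, adjusted p = 4.8e-04). Klra probes may hybridise to several near-identical family members, so those values are uncertain. Prf1, the pore-forming protein perforin (0.13, adjusted p = 0.62), and the transcription factors Eomes (-0.06, adjusted p = 0.80) and Tbx21 (-0.36, adjusted p = 0.44) did not pass. Xcl1, a chemokine made by natural killer and activated CD8 T cells, was the member higher in nodes (0.64, adjusted p = 0.0030). Ncam1, an adhesion molecule of nerve and some lymphoid cells, was at least 3.24-fold lower in nodes (adjusted p = 1.8e-06).

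**Figure D2:**
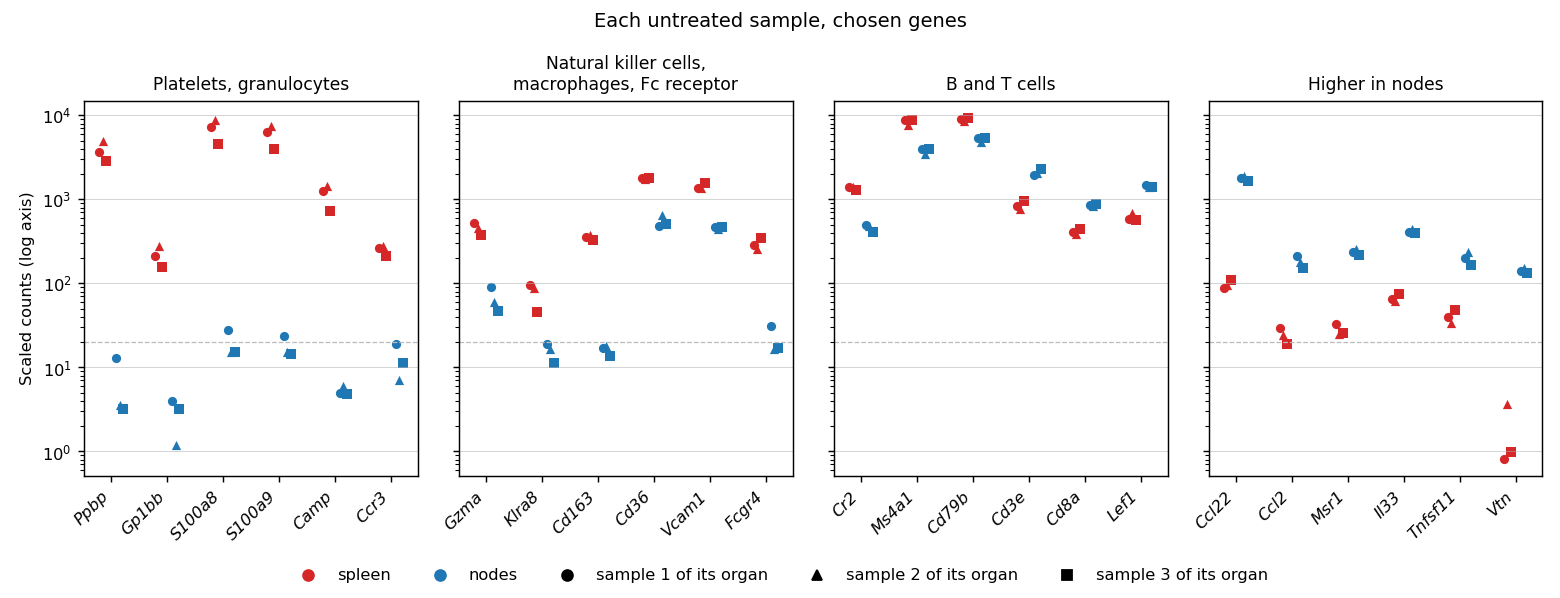
Scaled counts (log axis) of 24 genes in each untreated sample, spleens in red and nodes in blue, with a symbol for each of the 3 samples of an organ. The dashed line marks 20 scaled counts. In all 24 genes the 3 spleens and the 3 nodes do not overlap, as in 75.3% of all tested genes. In Ppbp, Gp1bb, S100a8, S100a9 and Camp spleen 3 is the lowest spleen.

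Macrophage genes went both ways. Of 11 tested, 7 were lower in nodes and 3 higher, and the members ran from -4.47 to 3.78. Cd163, the hemoglobin scavenger receptor of red pulp macrophages, stood at 360.5, 376 and 331 scaled counts in spleens and 16.9, 17.9 and 13.7 in nodes, at least 17.8-fold lower (adjusted p = 7.0e-10). All 3 nodes lay under 20 and the spleens within a narrow range. Vcam1, an adhesion molecule of red pulp macrophages and stroma, stood at 1375, 1375 and 1549 in spleens and 467, 444 and 464 in nodes (3.12-fold lower, adjusted p = 3.5e-08), and the lipid scavenger receptor Cd36 at 1805, 1736 and 1777 in spleens and 477, 649 and 509 in nodes (3.26-fold lower, adjusted p = 1.4e-07). The general macrophage genes Emr1, which encodes F4/80, and Csf1r, the receptor for colony-stimulating factor 1, differed by -1.12 and -0.96 (adjusted p = 2.7e-05 and 1.2e-05). The 3 members higher in nodes are pattern or scavenger receptors, a class that also holds Cd163 and Cd36, which were lower. Msr1, scavenger receptor A, stood at 33.1, 24.9 and 25.7 in spleens and 238, 258 and 216 in nodes, 8.41-fold higher (adjusted p = 4.5e-07). Cd209g, a C-type lectin of the DC-SIGN family, stood at 32.3, 28.6 and 18.8 in spleens and 254, 611 and 256 in nodes, 13.8-fold higher (adjusted p = 2.8e-06), with node 2 the highest of the nodes. Marco, a scavenger receptor of marginal zone and sinus macrophages, stood at 1208, 1472 and 1816 in spleens and 3431, 4105 and 3234 in nodes, 2.40-fold higher (adjusted p = 2.1e-05). Summed over the 6 macrophage markers on the panel, the ranges of the organs overlapped, at 6383 to 6918 scaled counts in spleens and 5418 to 6665 in nodes. Of these 6 markers 2 were higher in nodes and 4 lower, and the sum is weighted toward markers with high counts.

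Fc receptors, which bind antibody, were lower in nodes in 5 of 7 tested. Fcgr4, the activating mouse receptor for IgG on monocytes and macrophages, stood at 290.2, 254 and 347 scaled counts in spleens and 30.8, 16.7 and 16.9 in nodes, 13.8-fold lower (adjusted p = 1.5e-07). Fcgr1, the high-affinity IgG receptor, differed by -1.52 (adjusted p = 1.5e-05), Fcer1g, the signalling chain that these receptors share, by -1.34 (adjusted p = 1.0e-06), and the inhibitory receptor Fcgr2b by -1.08 (adjusted p = 7.2e-07). Fcgrt, the neonatal Fc receptor, which recycles IgG, was not called (-0.08, adjusted p = 0.51). Fcamr, a receptor for IgM and IgA, was the exception at 1.23 (adjusted p = 0.0048). It stood at 75.2, 38.8 and 40.6 in the spleens and 132, 104 and 131 in the nodes.

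Monocyte and myeloid genes were lower in nodes in 12 of 16 tested, with 1 higher and a median of -0.70. The lower members with the largest differences were, after Fcer1g, Itgam, the alpha chain of the integrin CD11b (-1.15, SE 0.16), Cybb, the membrane subunit of the phagocyte oxidase (-1.10, SE 0.09), and the inhibitory receptor Lilrb3 (-1.09, SE 0.11). Ccr2, the receptor with which monocytes leave the bone marrow, differed by -0.91 (adjusted p = 4.6e-05). Csf2rb, the shared chain of the receptors for interleukin 3, interleukin 5 and GM-CSF, was the member higher in nodes (0.72, adjusted p = 6.1e-04). Toll-like receptors and adaptors had 12 of 18 lower, 1 higher (2 without spleen 1) and 5 not called. Tlr8, an endosomal RNA sensor, differed by -1.43 (adjusted p = 6.2e-06), Cd14, a coreceptor for lipopolysaccharide, by -1.03 (adjusted p = 2.4e-04), Tlr4, the lipopolysaccharide receptor, by -0.86 (adjusted p = 2.8e-05), and Tlr9, the sensor of CpG DNA, by -0.80 (adjusted p = 1.3e-04). Of the adaptors and kinases downstream, Tirap (-0.69), Irak2 (-0.45), Irak3 (-0.37) and Tollip (-0.35) were lower (adjusted p = 0.0049, 0.0023, 0.011 and 0.0021), and Myd88 (-0.05), Irak1 (-0.24) and Irak4 (-0.08) were not called. Sigirr, an inhibitor of this signalling, was the member higher in nodes (0.59, adjusted p = 0.0035). In the inflammasome list 6 of 10 were lower and 1 higher (0 without spleen 3, node 2 or node 3), the lower ones including Il18 (-1.51, adjusted p = 2.6e-06), a cytokine cleaved by caspase 1, and Casp1 itself (-0.36, adjusted p = 0.0017). The differences of Irak3, Tollip and Casp1 are about the size of that of the housekeeping gene G6pdx (-0.37).

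B cell genes were lower in nodes without exception in the identity list, 13 of 13, with log2 differences from -1.25 to -0.37. Cd79b, a signalling chain of the B cell receptor, stood at 9025, 8565 and 9348 scaled counts in spleens and 5317, 4781 and 5364 in nodes (-0.80, SE 0.09, adjusted p = 5.3e-06). Each node lay below each spleen, and the organs did not overlap in 75.3% of all tested genes. The kinase Syk, which is shared with myeloid cells, differed by -1.06, and the transcription factor Pax5, which sets B cell identity, by -0.70 (adjusted p = 1.8e-06 and 5.8e-04). The 8 markers summed to 28105 to 29511 in spleens and 14231 to 16402 in nodes. Receptors of follicular and marginal zone B cells were lower in 7 of 8. Cr2, the complement receptor of these B cells and of follicular dendritic cells, stood at 1390.3, 1392 and 1294 in spleens and 498, 487 and 406 in nodes (2.93-fold lower, adjusted p = 4.5e-07). Cd9, a tetraspanin of marginal zone B cells and platelets, differed by -1.07 (adjusted p = 2.0e-07), while Notch2 and Cd1d1, both linked to marginal zone B cells, differed by -0.51 and -0.45 (adjusted p = 8.8e-04 and 7.3e-04). Cd24a, an adhesion protein of B cells, granulocytes and red cell precursors, differed by -1.25 (adjusted p = 0.014).

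Germinal centre and plasma cell genes had 5 tested members, of which 2 were lower in nodes and 2 not called. Bcl6, the transcription factor of germinal centre B cells and follicular helper T cells, was not called (0.11, adjusted p = 0.51). Xbp1 and Irf4, which plasma cells need, were lower in nodes (-0.59 and -0.60, adjusted p = 3.4e-05 and 1.7e-04), and Prdm1, which drives plasma cell formation, did not pass (-0.44, adjusted p = 0.057).

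T cell genes were higher in nodes across several lists. In the receptor and proximal signalling list 14 of 16 were higher and 1 lower, and 10 of the 14 differed at least 2-fold. Cd3e, a signalling chain of the T cell receptor, stood at 839.8, 774 and 951 scaled counts in spleens and 1965, 2035 and 2281 in nodes (2.45-fold higher, adjusted p = 2.0e-05). Cd4 and Cd8a, the coreceptors of helper and cytotoxic T cells, differed by 0.94 and 1.05 (adjusted p = 4.7e-06 and 2.0e-05). The ratio of Cd8a to Cd4 was 0.643, 0.607 and 0.633 in the spleens and 0.711, 0.640 and 0.674 in the nodes, given without a test. Cd7, found on T and natural killer cells, was the member lower in nodes (-0.66, adjusted p = 1.2e-04). The 10 T cell markers summed to 6384 to 7538 in spleens and 14479 to 15933 in nodes. Costimulation and survival genes were higher in 14 of 17, led by Tnfrsf4, which encodes OX40 (1.38, adjusted p = 1.6e-06), and Cd40lg, the helper signal to B cells (1.34, adjusted p = 1.8e-05). The 1 member lower in nodes was Tnfsf14, which encodes the ligand LIGHT (-0.71, adjusted p = 0.0035).

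Among T cell transcription factors 9 of 13 were higher in nodes and 1 lower. Tcf7, which maintains naive and memory T cells, and Lef1, its relative, differed by 1.18 and 1.23 (adjusted p = 1.8e-05 and 1.9e-05), and Gata3, the regulator of type 2 helper cells, by 0.88 (adjusted p = 2.8e-05). Tbx21 and Eomes, regulators of type 1 and cytotoxic cells, were not called, as given with the natural killer genes. Regulatory T cell and checkpoint genes were higher in 6 of 11 and lower in 0, or 1 in 6 of the 12 fits that left out 1 sample. Folr4, folate receptor 4 of regulatory T cells, differed by 1.47 (SE 0.13, adjusted p = 8.8e-07), Ikzf4, a regulatory T cell transcription factor, by 1.30 (adjusted p = 1.4e-05), and Il2ra, the high-affinity chain of the interleukin 2 receptor, by 1.26 (adjusted p = 8.4e-05). Foxp3, which defines regulatory T cells, stood at 95.4, 78.5 and 82.2 scaled counts in spleens and 152, 145 and 165 in nodes (0.85, adjusted p = 6.8e-04). Relative to Cd4, Foxp3 was at 0.148, 0.124 and 0.118 in the spleens and 0.125, 0.113 and 0.128 in the nodes, and these ranges overlapped. Relative to Cd3e it was at 0.114, 0.101 and 0.0865 in the spleens and 0.0773, 0.0714 and 0.0724 in the nodes, lower in each node than in each spleen. Neither ratio was tested. The checkpoint genes Btla (-0.30), Cd274 (-0.20) and Pdcd1lg2 (0.09) were not called, while Pdcd1, which encodes PD-1, was higher (0.94, adjusted p = 2.1e-04).

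Homing receptors were called in both directions, 3 higher in nodes and 3 lower of 13. Ccr7, which guides T cells and migrating dendritic cells into nodes, stood at 1432, 1411 and 1296 scaled counts in spleens and 3086, 3196 and 3003 in nodes (1.17, adjusted p = 3.9e-06). Ccr9, the receptor for gut homing, averaged 216 ± 19.4 and 543 ± 76.8 (SD, n = 3 each, 1.33 on the log2 scale, adjusted p = 4.0e-06), and Cxcr6, found on activated T and innate-like lymphocytes, differed by 1.02 (adjusted p = 6.5e-05). In all 3 genes each node lay above each spleen, and the organs did not overlap in 75.3% of all tested genes. The number of members higher in nodes was 5 without ampicillin spleen 1. Cxcr5, the receptor that leads B cells to follicles, was lower (-0.96, adjusted p = 3.1e-06), as was the integrin chain Itga4 (-0.39, adjusted p = 0.0051). The difference of Itga4 is about the size of that of the housekeeping gene G6pdx (-0.37). Cxcr4, the receptor for Cxcl12, did not pass (0.06, adjusted p = 0.85).

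Chemokines spanned the widest range of the 32 lists, from -9.17 (Ppbp) to 4.18 (Ccl22). Of 17 tested, 9 were higher in nodes, 6 lower and 2 not called, and 10 more lay below the minimum. Ccl22, a dendritic cell chemokine that attracts regulatory and type 2 helper T cells, stood at 87.3, 97.0 and 111 scaled counts in spleens and 1783, 1923 and 1645 in nodes, 18.2-fold higher (log2 difference 4.18, SE 0.13, adjusted p = 2.7e-11). It had the smallest adjusted p of the 445 genes, and the spread within each organ was small against the gap. Its receptor Ccr4 was also higher, at least 1.97-fold, with 9.70, 11.1 and 14.9 in spleens and 50.6, 34.5 and 33.0 in nodes. Because Ccl22 had this place, its start region is shown in the same form, at chr8:94745434-94745683 (plus strand), with an ETS match on the reverse strand that begins 17 bases before the start.
Ccl22: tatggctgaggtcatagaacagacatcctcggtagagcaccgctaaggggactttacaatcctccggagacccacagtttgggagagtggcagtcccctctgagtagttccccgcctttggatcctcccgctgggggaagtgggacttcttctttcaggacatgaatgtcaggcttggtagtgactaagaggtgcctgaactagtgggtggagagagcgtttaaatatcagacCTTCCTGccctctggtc

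Other chemokines with large differences lay on both sides. Ccl2, the main ligand of Ccr2, stood at 29.1, 24.0 and 18.8 scaled counts in spleens and 209, 182 and 152 in nodes, 7.45-fold higher (adjusted p = 5.6e-07). Ccl8 stood at 6.47, 6.47 and 6.93 in spleens and 83.4, 166 and 63.7 in nodes, at least 5.21-fold higher (adjusted p = 2.7e-05), and the eosinophil chemokine Ccl11 at 10.5, 6.47 and 9.90 in spleens and 106, 133 and 114 in nodes, at least 5.89-fold higher (adjusted p = 1.1e-07). The ligands Ccl2 and Ccl11 were thus higher in nodes, whereas Ccr2 and the Ccl11 receptor Ccr3 were lower there, as given above. Ccl5, a chemokine of T and natural killer cells, was higher by 1.57 (SE 0.11, adjusted p = 1.1e-07), and Cx3cl1, which encodes fractalkine, at least 2.12-fold. The lower members besides Ppbp included the myeloid chemokines Ccl6 (-1.93, adjusted p = 6.2e-05) and Ccl9 (-0.72, adjusted p = 3.1e-04). Ccl3, a chemokine of macrophages, was not called (-0.47, adjusted p = 0.084).

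Genes of lymphoid stroma and organ formation were called in both directions. Cxcl13, which stromal cells of B cell follicles make, stood at 3282, 3524 and 4091 scaled counts in spleens and 1411, 1561 and 1112 in nodes (2.67-fold lower in nodes, adjusted p = 8.1e-07). Ccl19, a ligand of Ccr7 from the T cell zone, stood at 1352, 1513 and 1451 in spleens and 2569, 2872 and 1856 in nodes (1.69-fold higher, adjusted p = 7.2e-04). Tnfsf11, which encodes RANKL, a factor lymph nodes need to form, stood at 39.6, 34.2 and 48.5 in spleens and 200.5, 237 and 167 in nodes (4.92-fold higher, adjusted p = 1.1e-07). No sample of either organ crossed into the range of the other in these genes, as in 75.3% of all tested genes. Over the list of 14, 5 were higher, 5 lower (3 without spleen 2, spleen 3, node 1 or node 3) and 4 not called, and the lymphotoxin genes Lta (0.08, adjusted p = 0.56) and Ltb (0.11, adjusted p = 0.39) were among those not called. Cxcl12, a chemokine of stroma that retains plasma cells and precursors, was lower (-0.80, adjusted p = 1.3e-04). Il33, a cytokine stored in the nuclei of stromal and endothelial cells, stood at 64.7, 61.0 and 75.3 in spleens and 411, 443 and 393 in nodes, 6.20-fold higher (adjusted p = 8.7e-09), and its receptor Il1rl1 was not called (-0.96, adjusted p = 0.088).

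Complement genes were mostly higher in nodes, 7 of 11 early components (2 lower) and 5 of 7 tested terminal components and regulators (1 lower), with 9 of the latter list below the minimum. Without node 2 the higher members of the latter list numbered 3. Vtn encodes vitronectin, which blocks the terminal complex and binds matrix. It stood at 0.808, 3.70 and 0.990 scaled counts in spleens and 141, 154 and 134 in nodes, at least 7.14-fold higher (adjusted p = 2.9e-08). Cfd, the protease factor D, which fat cells make in quantity, stood at 10.5, 11.1 and 10.9 in spleens and 202, 195 and 140.3 in nodes, at least 8.97-fold higher (adjusted p = 7.6e-05). C3, the central component, stood at 2408, 2598 and 2809 in spleens and 6184, 6655 and 5173 in nodes (2.30-fold higher, adjusted p = 4.9e-06). Among genes of the alternative pathway, factor B (Cfb, 1.11) was higher, while properdin (Cfp, -1.09), which myeloid cells make, was lower (adjusted p = 1.8e-06 and 1.2e-05). C6 and C7, neighbours in the terminal complex, went opposite ways. C6 stood at 207, 261 and 296 in spleens and 41.7, 35.7 and 44.3 in nodes, 6.21-fold lower (adjusted p = 8.1e-07), and C7 at 5.66, 9.24 and 12.9 in spleens and 17.9, 41.7 and 21.8 in nodes, at least 1.36-fold higher (adjusted p = 0.0029). C7 lay just inside the minimum, with a mean of 20.7 scaled counts over the 12 samples.

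**Figure D3:**
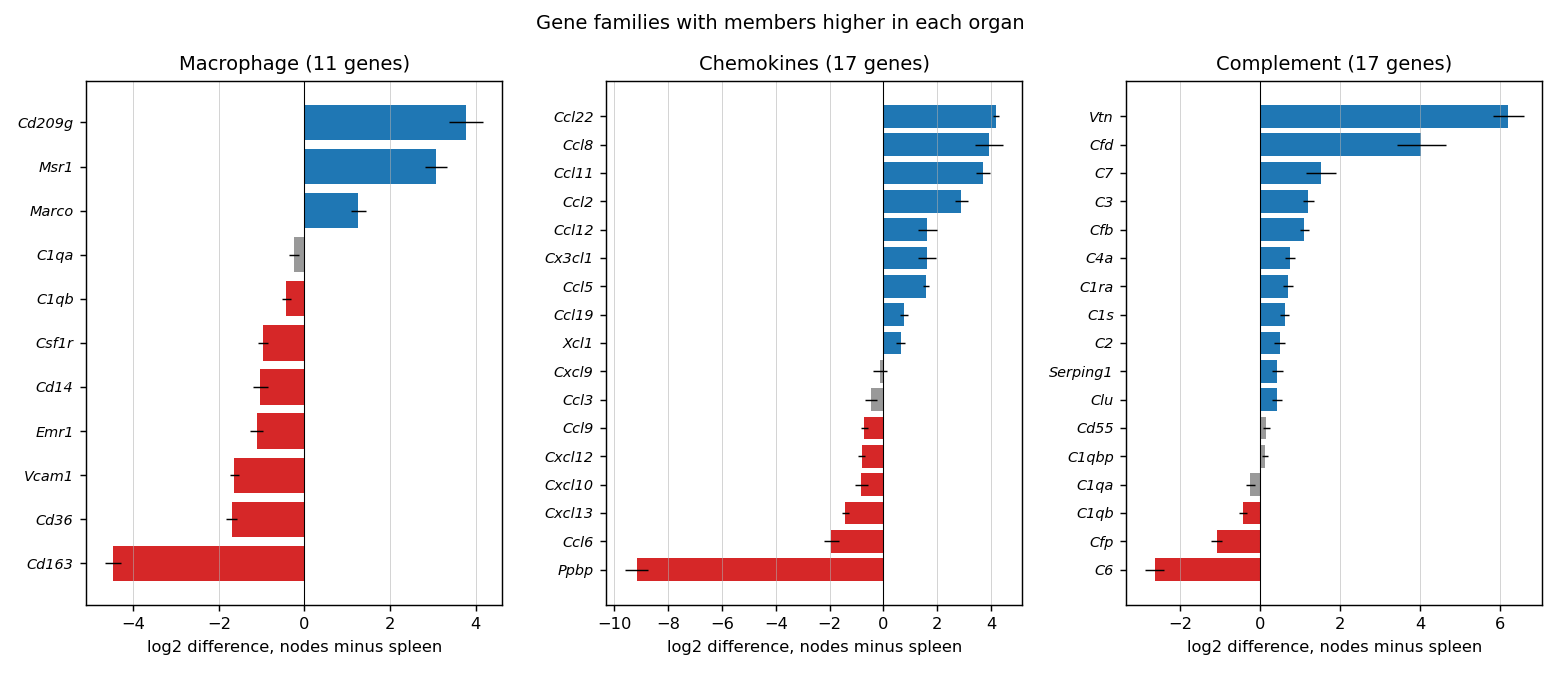
Log2 difference, nodes minus spleen, of the tested macrophage and chemokine genes and of 17 complement genes, with bars to the model's estimate and error bars of 1 SE. Bars are blue where the gene was higher in nodes, red where lower and grey where not called. Each family has called genes on both sides of 0, with scales that differ between the panels.

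Cfd is known from fat and connective tissue, and the values of that marker list are given beside it. Of the 5 markers, Cfd, C7 and Fn1, which encodes the matrix protein fibronectin (0.77, adjusted p = 0.0035), were higher in nodes. Pparg, the regulator of fat cell formation, stood at 63.9, 64.7 and 55.5 scaled counts in spleens and 13.9, 22.6 and 15.3 in nodes, at least 3.07-fold lower, and Pdgfrb, a receptor of pericytes and fibroblasts, differed by -1.32 (adjusted p = 4.2e-04). The list summed to 467 to 694 in spleens and 760 to 1071 in nodes, with Cfd and C7 under 20 in spleens and Pparg in nodes. That sum joins markers that went both ways and is weighted toward those with high counts. The part of this list in the complement values was not tested. Endothelial markers summed to 3047 to 3206 in spleens and 3505 to 3808 in nodes. Of these 3 markers 1 was called, Pecam1 (0.31), and Cdh5 (0.17) and Icam2 (-0.02) were not. All 3 differences lie within the range of the housekeeping genes. Markers of gut epithelium lay under 20 scaled counts in the nodes for 5 of 5 and in the spleens for 4 of 5.

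Dendritic cell genes were split, 6 of 13 higher in nodes and 5 lower. Besides Ccl22, Cd209g and Ccr7, the higher members included Xcr1 and Batf3 of the cross-presenting subset (0.71 and 0.53, adjusted p = 0.0049 and 0.0050). Itgax, which encodes CD11c, was lower at 179, 193 and 157 scaled counts in nodes against 368, 379 and 307 in spleens (adjusted p = 3.8e-05), as were the costimulatory ligands Cd86 and Cd80 (-0.77 and -0.75, adjusted p = 7.6e-05 and 8.6e-04). MHC class II genes were lower in 7 of 8 and within a narrow range, the largest difference being -0.46, that of H2-Aa and Cd74 (adjusted p = 0.0015 and 8.8e-04). Tested in edgeR against a fold of 1.25, these 7 were no longer called (adjusted p from 0.055 for Cd74 to 0.49 for H2-DMa). In ampicillin-treated mice the median of the 8 was -0.09 and 0 were called by edgeR (adjusted p from 0.084 for H2-Ob to 0.92 for H2-Eb1). The difference between untreated and treated mice was itself not called for any of the 8 (adjusted p from 0.31 for H2-DMa to 0.99 for H2-Ob). MHC class I and immunoproteasome genes were higher in 6 of 12 and lower in 0 (1 without spleen 3), up to 0.41 in H2-K1 (adjusted p = 0.0079). Differences of this size are close to those of the housekeeping genes G6pdx and Tubb5, and H2 probes may hybridise to several family members.

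**Figure D4:**
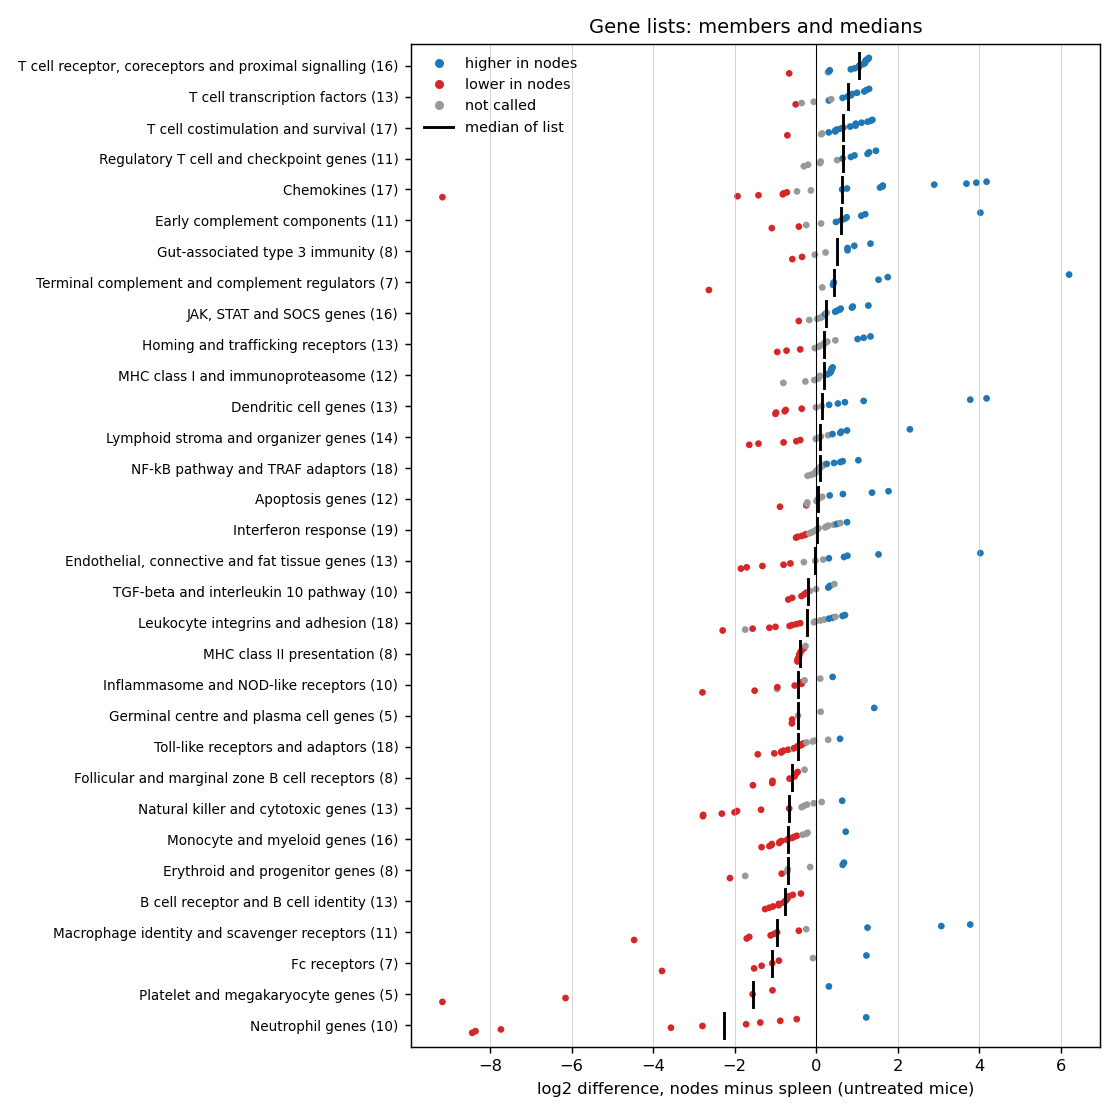
Log2 difference, nodes minus spleen, of each tested gene (points, coloured by call) in 32 gene lists, with the number of tested genes in parentheses and the median as a black bar. Lists are ordered by median, from 1.06 for T cell receptor genes at the top to -2.26 for neutrophil genes at the bottom, and a gene can appear in several lists.

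Cytokine signalling genes differed by less. In the JAK, STAT and SOCS list 8 of 16 were higher in nodes and 1 lower. The feedback inhibitors Socs1 (1.28), Socs3 (0.90) and Cish (0.88) had the largest differences (adjusted p = 5.5e-05, 1.2e-04 and 0.0039), and the phosphatase Ptpn6, which dampens receptor signals, was the lower member (-0.43, adjusted p = 0.0015). Of 18 NF-kB and TRAF genes 5 were higher, 0 lower (1 without ampicillin spleen 1) and 13 not called, among the latter Nfkb1 (-0.21) and Nfkb2 (-0.01). Of 19 interferon response genes 12 were not called, 2 were higher, Mx1 (0.76, adjusted p = 0.0072) and Irf1 (0.51, adjusted p = 8.2e-04), and 5 were lower. The number higher was 5 without ampicillin node 3, and the number lower 3 without node 1. Il10ra, the ligand-binding chain of the interleukin 10 receptor, and Tgfb1 were lower (-0.68 and -0.59, adjusted p = 2.4e-04 and 2.7e-05) in a list where 5 of 10 were lower (3 without spleen 2 or node 1) and 2 higher (0 without spleen 1, 1 without spleen 3, node 1 or node 2). Among apoptosis genes, 4 of 12 higher and 2 lower (1 in 8 of the 12 fits that left out 1 sample), Tnfsf10, which encodes the death ligand TRAIL, was 3.42-fold higher in nodes (adjusted p = 3.5e-08) and Cdkn1a, the cell cycle inhibitor p21, 2.59-fold higher (adjusted p = 1.7e-06).

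Type 3 immunity, the interleukin 17 and 22 response of gut tissue, was thinly measured. Of 15 genes on the panel 7 lay below the minimum, among them Il17a, Il17f and Il22, and of the 8 tested 4 were higher in nodes and 2 lower (1 without spleen 2, spleen 3 or node 3). Besides Ccr9, Il22ra2, the soluble inhibitor of interleukin 22, stood at 125, 138 and 139.6 scaled counts in spleens and 178, 319 and 193 in nodes (0.77, adjusted p = 0.0035), and Il23r, the interleukin 23 receptor, was at least 1.47-fold higher (adjusted p = 0.0082). Node 2 was the highest in Il22ra2. Ahr, a receptor for plant and microbial compounds, was lower (-0.59, adjusted p = 0.0039).

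Just inside the minimum, besides C7, were Il12rb1 with a mean of 21.2 and Itln1 with 22.1 scaled counts over the 12 samples, and just outside were Ccl24 with 19.6, Klra4 with 19.4 and Lif with 18.7. With no minimum, 8 of the 102 genes left out were called higher in nodes, including Ccl7, Cxcl1 and Il21, and 11 lower, including Ccl24, Klra4, Trem1, Ltf and Gzmb. Replicates of an organ were close, with an SD of 7.85% of the mean in spleens and 7.87% in nodes at the median gene. Spleen 2 was the highest of the 3 spleens in 206 of the 445 genes, spleen 1 in 124 and spleen 3 in 115. Node 2 was the highest node in 186, node 1 in 159 and node 3 in 100.

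The organs were also compared in the 6 ampicillin-treated mice, which share no sample with the untreated comparison but share the estimate of spread. There 281 of 445 genes were called (63.1%), 149 higher in nodes (33.5%) and 132 lower (29.7%). Of the 132 genes higher in nodes in untreated mice, 123 were called the same way, which is 93.2% of the untreated list and 82.6% of the ampicillin list. Of the 153 lower, 120 were called the same way, 78.4% and 90.9% of these lists, and no gene was called in opposite directions. The 51 and 55 genes called at 2-fold or more were all called the same way in treated mice. Ccl22 differed by 4.02 (adjusted p = 5.5e-11) and Ppbp by -9.39 (adjusted p = 3.4e-09) there. In Cfd the treated spleens stood at 9.57, 9.06 and 71.7 scaled counts and the treated nodes at 84.9, 202 and 151, with treated spleen 3 above the other treated spleens. The difference between the organ differences passed for none of the 445 genes (0.00%) in edgeR, with 49 at an unadjusted p under 0.05 and a smallest adjusted p of 0.31. DESeq2 with the same scaling called 2, Cd9 (adjusted p = 0.012) and Sh2d1a, the adaptor SAP of T and natural killer cells (adjusted p = 0.042). Without ampicillin spleen 1, edgeR called 59.

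**Figure D5:**
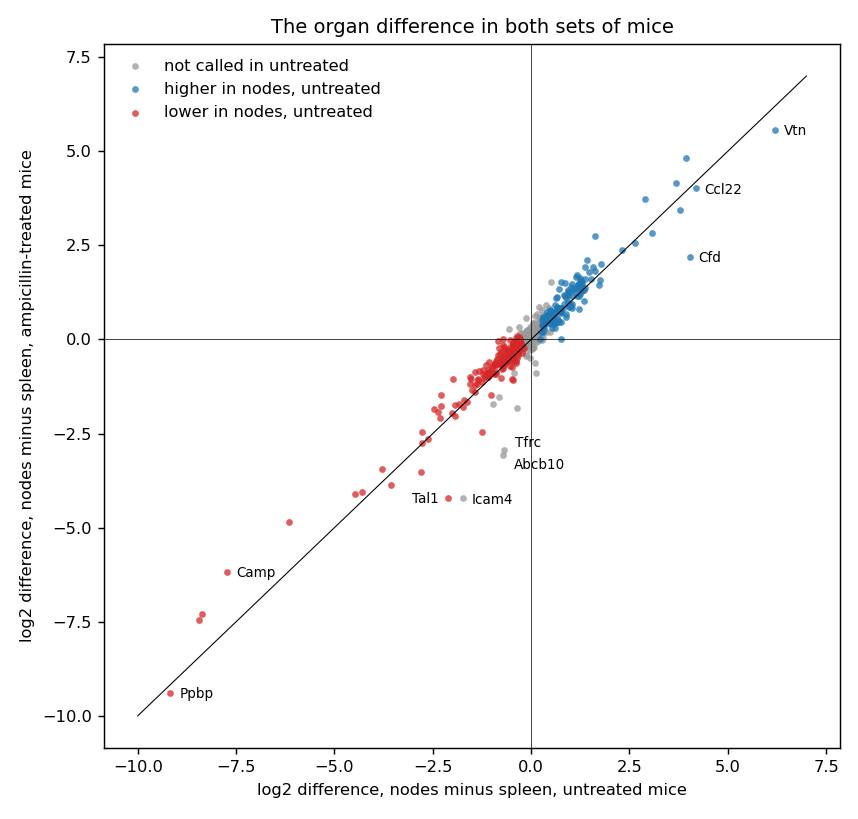
Log2 difference, nodes minus spleen, of the 445 genes in untreated mice (x) and in ampicillin-treated mice (y), coloured by the call in untreated mice, with a line of equal values. Points follow the line, and Tfrc, Abcb10, Icam4 and Tal1 lie below it, by amounts that did not pass the test of the difference.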

How the data were processed

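RNA of 12 samples was measured with the NanoString mouse immunology panel. Per the labels' protocols, tissue went into RNAlater and a Qiagen column kit gave the RNA. The deposited table holds whole-number counts for 561 genes. The design text speaks of nSolver normalization by 14 housekeeping genes, but the deposited values still differ in housekeeping level (geometric mean 1016 to 1501 in the untreated samples), so they were treated as raw counts. The probe counting software version is not given in the sources used here. A further table had 12 sample columns whose names match no label and was not used, so no background was taken from control probes.

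Each count was divided by the sample's housekeeping geometric mean over the mean of these 12 values. The design text gives only the number of housekeeping genes, and the 14 taken were picked by what is known of the panel. Genes with a mean under 20 scaled counts over the 12 samples were left out. Counts were tested by edgeR 4.0.16 (quasi-likelihood, R 4.3.3) in a model of 4 group means with all 12 samples, which leaves 8 residual degrees of freedom, and p was adjusted by Benjamini-Hochberg over 445 genes. SE and p therefore rest on a spread shared by the 4 groups. On simulated data for this comparison it called 24.2% of 66 genes changed 1.25-fold, 85.1% of 67 changed 1.5-fold and 98.5% of 66 changed 2-fold. Of 246 unchanged genes in that simulation 0.81% were called. The simulation gave every gene the same dispersion, so these shares do not hold for genes with a larger or smaller spread. Chi-square per degree of freedom between untreated replicates was 4.42 to 15.5, so none differed from another by counting noise alone. A second preparation of the same RNA could exceed counting noise too, so this check cannot exclude one. The p-values measure the spread between mice, and no intervals from counting alone are given.

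Named genes were the 15 largest called differences each way, up to 8 called and 4 uncalled members of each list, the cell type markers and the housekeeping genes. Some genes that this rule names are not reported here. Ccl5, Ccl9, Irak2, Irak3, Sh2d1a, Tnfsf14 and Tollip were named after their values were seen. The members, lists and tests were chosen with earlier results of these data known. Alternatives were other scalings, DESeq2 1.42.0, limma 3.58.1, the methods' t-test with its fold of 1.25, edgeR's test against that fold, other minimums, the untreated samples alone, the replicate number as a block, and leaving out each sample. Gene names follow the deposited table. RefSeq on GRCm38.p6 holds 545 of them as symbols and 14 as a synonym, leaving 2 unmatched, and 330 of the 445 tested genes had a promoter sequence there, the first listed start being used.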

Additional observations from a re-analysis of the deposited data

How the results depend on the processing

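Called genes between untreated nodes and spleens numbered 285, 267 to 305 when 1 sample was left out and 193 to 312 under the other alternatives, and called genes at 2-fold or more numbered 106, 103 to 110 and 80 to 125. None of 209 named called genes changed sign under any of the 25 alternatives, and 124 were called under all of them. Of the named genes that were not called, 29 of 72 passed under at least 1 alternative. The methods' t-test called 193 genes after adjustment, or 236 at its own threshold (107 higher in nodes, 129 lower). By its adjusted p alone, whatever the fold, 61 of the named called genes did not pass, including Cd209g (adjusted p = 0.14), Ccl8 (0.13), Ccl19 (0.11), Csf3r (0.11) and Ctsg (0.093). Against a fold of 1.25 edgeR called 208, and 43 named genes no longer passed, including H2-Aa (0.068), Casp1 (0.24) and H2-K1 (0.17). Scaling to other references moved the median log2 difference from -0.03 up to between -0.00088 and 0.03, and trimmed-mean scaling called 151 higher and 151 lower. In ampicillin-treated mice 281 genes were called, 267 to 298 when 1 sample was left out and 111 with the methods' t-test. The difference of the organ differences had 0 called in edgeR, 2 in DESeq2 with housekeeping factors, and 0 to 59 when 1 sample was left out, the highest without ampicillin spleen 1. The cause of these shifts was not tested. The replicate numbers were not taken as pairs, since the labels give every sample a mouse of its own. Deviations of same-numbered nodes and spleens correlated at 0.20, 0.02 and 0.18, and those of differently numbered ones at -0.19 to 0.03. These correlations share samples and were not tested, so they cannot settle whether the numbers carry meaning. With the replicate number as a block, 284 genes were called (132 higher, 152 lower), with 106 at 2-fold or more, 276 in treated mice and 0 for the difference of the organ differences.

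With 3 mice per organ, one strain and one age, the comparison measures these groups alone. Genes under 20 scaled counts in an organ have bounds, not folds, and the bound rests on a minimum and not on a measured background. Fitted folds of such genes moved with single samples: that of Vtn was 74.0, or 140.4 without spleen 2, and that of Ppbp 578, or 1095 without node 1. The makeup of cell types was not measured.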
